A study of Drosophila melanogaster and Drosophila simulans and Drosophila yakuba with 72 samples.

Results

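Among the oligonucleotide probes of a Drosophila microRNA array, 543 were designed against microRNAs of the silkworm Bombyx mori (414 probes, names starting bmo-) or of Drosophila pseudoobscura (129 probes, names starting dps-) that carry high microRNA numbers and have no D. melanogaster counterpart listed on the array. They were chosen by a rule on name and sequence, which used no signal value but was set with earlier results of these data known. It asked for a silkworm number of at least 2700 or a D. pseudoobscura number from the block that runs from 2502 to 2576 on the array. It also asked for an empty D. melanogaster entry and a target with neither 4 G in a row nor 2 runs of 3 G. The members make up 543 of the 1347 different probes on the array. The samples were whole animals, collected as pools per the labels, and each array carried 1 sample taken at puparium formation (PF) and 1 earlier sample, at least 18 before PF in the time notation of the labels. The 2 samples of an array matched in strain, sex and replicate and carried different dyes. Males at both stages came from D. simulans (genotype label 14021-0251.167), D. yakuba (14021-0261.00) and from 4 strains of D. melanogaster: Zimbabwe-109, Samarkand, Canton-S and Oregon-R. Females at both stages came from D. simulans, Oregon-R and Zimbabwe-109. Each of these 18 groups held 4 samples, so 72 samples lay on 36 arrays. The species differences below are those of 1 stock for D. simulans and 1 for D. yakuba, and p-values measure the spread between these pools.

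MicroRNAs are short RNAs that guide Argonaute proteins to messenger RNAs, mainly through the seed, the stretch near the 5′ end of the microRNA. A name ending in an asterisk marks the strand of the precursor that is usually the less abundant. A probe that carries the complement of a silkworm microRNA can give signal in Drosophila RNA when the same sequence is present, when a related RNA pairs with it in part, or when labelled material sticks to it for other reasons. Puparium formation ends the larval life of the fly and follows a pulse of the steroid hormone ecdysone, and let-7 is a microRNA known to be switched on around that time.

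The seeds of the targets of the 10 members measured often enough to be tested are shown because the seed sets which known microRNA family a target could belong to. Each runs 5′ to 3′ over bases 2 to 8 of the target.
bmo-miR-2779: UAUCCGG
bmo-miR-2774c: UCGGUGG
dps-miR-2571*: UGAGUGG
bmo-miR-3366: AGUAUGA
bmo-miR-3234: CAUCGUG
bmo-miR-3287: UCGGUUU
bmo-miR-2724: CCCCCGG
dps-miR-2523: AGUAACU
bmo-miR-2856*: UGUCUGU
bmo-miR-2789: UAGAAAG
The 10 seeds all differ, and 0 of the 186 probes with a D. melanogaster entry share 1 of them. Of the other probes on the array, bmo-miR-2774a has the seed of bmo-miR-2774c and dps-miR-2546* has that of dps-miR-2571*, and neither was tested.

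Among the other targets on the array, the closest stretches shared with D. melanogaster RNAs were short. D. melanogaster RNAs without a target on the array were not searched. The following 3 target sequences, as deposited for the array, are shown because a tested member shares with each of them the stretch printed in capitals.
2S rRNA, unmodified control target: ugcuuggACUACAUAUGguugagg
dme-miR-2501: guAAGUUUGGAGugccugggcuaa
dme-miR-955: CAUCGUGCAgagguuugaguguc
By the RefSeq annotation of D. melanogaster, the 2S rRNA gene copy looked up here, 2SrRNA:CR45864, lies on chromosome X. Copies elsewhere were not looked up. By the same annotation mir-2501 and mir-955 lie on chromosome 3L. The stretch in 2S rRNA, 10 bases long, is shared with dps-miR-2523, that in dme-miR-2501, also 10 bases, with bmo-miR-2789, and that in dme-miR-955, 9 bases, with bmo-miR-3234. The probe for dme-miR-2501 was over the detection limit in 0 of 72 samples and so was that for dme-miR-955, while the unmodified 2S rRNA probe was over it in all 72. For bmo-miR-2779 the longest run shared with any target outside these members was 9 bases, with dme-miR-997 (0 of 72 samples), and for bmo-miR-2774c it was 8 bases, with der-miR-7 (66 of 72 samples). For bmo-miR-3366 and bmo-miR-3287 it was 8 bases, for dps-miR-2571* 7, for bmo-miR-2856* 9 and for bmo-miR-2724 12, the last with aae-miR-2944b (0 of 72 samples).

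A probe counted as detected in a sample when the median of its 3 spots exceeded the median of the empty spots of that array and channel by over 3 standard deviations. By this limit 57 of the 543 members were detected in at least 1 sample and 486 in none. Of those 57, 31 were detected in a single sample, 13 in 2 to 5 samples and 13 in 6 or more, and bmo-miR-2779 alone passed it in 36 samples or more. Net intensity, the probe median minus the empty-spot median, peaked over the 72 samples at a median of 24.1 per member. It exceeded 1000 somewhere for 8 members and peaked between 100 and 1000 for 9. The brightest of the 486 members that were never detected reached 80.7.

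Detection was rarer among these members than among the other kinds of probe. At least 1 sample was over the limit for 10.5% of members, with silkworm (10.4%) and D. pseudoobscura (10.9%) probes alike, against 31.3% of the 144 other silkworm and D. pseudoobscura probes and 55.4% of the 186 probes with a D. melanogaster entry. Of the 39096 member values, 314 (0.803%) were over the limit. Triples of empty spots, treated as if they were probes, passed the same limit in 0.152% of cases. These shares count probes and carry no test.

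Single samples held much of the scattered detection. The number of members detected per sample ran from 0 to 28 with a median of 3, and 3 samples had 0. The 28 were in the earlier D. simulans males of replicate 3. Moving the limit changed the long tail more than the core. With 2 SD over the empty spots 206 members were detected somewhere and 15 could be tested, with 5 SD 27 and 8, and with the 99th percentile of the empty spots 146 and 12.

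The probes at the edges of the rule were dim on both sides of it. Just inside, bmo-miR-2723 was detected in 0 samples with a highest net intensity of 11.9, and just below the cut bmo-miR-1926 was detected in 1 with 19.9. The lowest D. pseudoobscura number inside, dps-miR-2502, was detected in 2 samples (highest 70.1), the highest, dps-miR-2576, in 0 (14.4), and just below the range dps-miR-1010* was detected in 8 (49.7). The rule on G runs set aside 17 probes that fit it by name. Of these, 6 were detected somewhere and 4 often enough to test, among them bmo-miR-2783 in 47 samples, dps-miR-2550* in 24 and bmo-miR-3223* in 23.

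Members that could be tested held more pairs of adjacent G than the rest, although the rule had already removed the longest G runs. The target was 30% G at the median among the 10 tested and 22.7% among the 486 never detected. Of 211 members with no GG, 0.474% were tested, of 224 with 1 GG 0.893%, of 90 with 2 4.44%, and of 18 with 3 or more 16.7%. Among the 18, 50% were detected in at least 1 sample, against 8.53% of those without GG. These shares describe the probes, and their relation to the signal was not tested otherwise.

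Close relatives of bmo-miR-2774c gave no signal. By sequence, 63 members fell into 24 families and 480 stood alone. The targets of bmo-miR-2774a and bmo-miR-2774b differ from that of bmo-miR-2774c at 2 aligned positions each, yet neither was ever detected, with highest net intensities of 47.3 and 44.9.

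The stage labels were checked with the let-7 probe, whose normalised log2 signal was higher at PF by 4.69 to 5.37 in the 5 combinations of species and sex (limma, adjusted p at most 1.17e-24). Of all probes, 87 to 278 were detected per sample, and the standard deviation of the empty spots ran from 2.03 to 42.7. The slide of an array was read here from the array code in the name of its deposited scan. Read so, arrays lay on 7 slides, 5 with males and 2 with females and 0 with both. Sex and slide therefore cannot be told apart in any comparison of males with females. Same-array samples deviated from their group means together in 26 of 36 arrays (correlation over 0.1), and the array was kept as a random block in every test.

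Tests were run across the 272 probes detected in at least 3 samples of a group, and 10 members were among them. Each entered through a group where it was bright, so the counts of members that follow are descriptions to be read against the share of all 272 probes called, with a Benjamini-Hochberg adjusted p under 0.05 in limma. Between PF and the earlier stage in D. melanogaster males 66.5% of all probes were called and 7 of the 10 members: 2 were higher at PF (45.6% of all probes) and 5 lower (21%). In D. melanogaster females 75.0% of probes and 8 members were called, 2 higher (47.4%) and 6 lower (27.6%). In D. simulans males 46.0% of probes and 2 members were called, in D. simulans females 39.3% and 2, and in D. yakuba males 47.1% and 2. A few members entered through 1 group alone: bmo-miR-2774c through Oregon-R males at PF, bmo-miR-3287 through earlier Zimbabwe-109 males, and bmo-miR-3234 and bmo-miR-2724 through earlier Zimbabwe-109 females. Others entered through groups of 1 kind: dps-miR-2571* and bmo-miR-3366 through earlier groups alone, and dps-miR-2523 and bmo-miR-2856* through female groups alone. Comparisons in which the admitting groups make the higher arm reuse the values that admitted the member. They are given below as descriptions with no p. The median difference, PF minus earlier, was -0.23 over the 10 members against 0.13 over all probes in D. melanogaster males, and -0.49 against 0.17 in females.

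bmo-miR-2779 was the only member detected in most samples (64 of 72) and was higher at PF in every stage comparison. In Oregon-R females its net intensity was 4599, 5019.9, 1997 and 4792 at PF, against 2123, 888, 2596 and 399 at the earlier stage. In Oregon-R males it was 527, 1500.2, 413 and 1437 at PF, against 496, 240.0, 242 and 112 earlier, and in Zimbabwe-109 males 176, 297, 28.9 and 411 at PF, against 25.8, 13, 3.1 and 12.2 earlier. The stages overlapped in raw intensity in the Oregon-R groups, whose samples also differ in dye, but within each array the normalised level was higher in the PF sample. D. yakuba males gave 487, 967, 726 and 1125 at PF and 232, 112, 249 and 70.6 earlier, without overlap.

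On the log2 scale the rise of bmo-miR-2779 at PF was 1.52 ± 0.09 (SE) in D. melanogaster males, 2.88-fold and in 16 of 16 arrays (limma, adjusted p = 1.73e-21). It was 1.28 ± 0.13 in D. melanogaster females in 8 of 8 arrays (adjusted p = 1.48e-12), 1.82 ± 0.19 in D. yakuba males in 4 of 4 (adjusted p = 3.37e-12) and 1.00 ± 0.19 in D. simulans males in 4 of 4 (adjusted p = 1.06e-05). In D. simulans females it was 0.51 ± 0.19 in 4 of 4 arrays (adjusted p = 0.0284), and leaving out replicate 1 or replicate 3 ended this call (adjusted p = 0.150 to 0.211). The 9 combinations of strain and sex ranged from 0.51 in D. simulans females to 1.82 in D. yakuba males, with Oregon-R, Canton-S and Samarkand males between 1.61 and 1.69.

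The level of bmo-miR-2779 also differed among the 4 D. melanogaster strains in males, in the order Oregon-R, Canton-S, Samarkand, Zimbabwe-109 at both stages. At PF, where 34.2% of all probes and 2 of the 10 members were called for a difference among strains, the mean log2 levels were 10.07, 9.62, 9.32 and 7.98 (limma F-test, adjusted p = 4.40e-09). At the earlier stage, where 39.0% of probes and 7 members were called, they were 8.46, 7.93, 7.65 and 6.86 (adjusted p = 4.77e-06). Neighbouring strains in this order were not tested against each other.

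bmo-miR-2779 was lower in males than in females of D. melanogaster and higher in males of D. simulans at PF. Over Oregon-R and Zimbabwe-109 it averaged 7.66 in males and 8.51 in females at the earlier stage, a difference of -0.85 ± 0.18 (limma, adjusted p = 0.000114), and 9.02 and 9.79 at PF, a difference of -0.76 ± 0.18 (adjusted p = 0.000259). In D. simulans at PF it averaged 8.31 in males and 7.51 in females (adjusted p = 0.0183). That last call ended without male replicate 3, male replicate 4, female replicate 2 or female replicate 4 (adjusted p = 0.0579 to 0.113). Whether the sex difference itself differs between the species was not tested. D. simulans males were lower than D. melanogaster males at PF by -0.94 ± 0.20 on the log2 scale (adjusted p = 0.000259). On the slides they shared, 2 D. simulans samples differed from 4 of Oregon-R by -2.15 and 2 others from 4 of Canton-S by -0.91, and with the slide as a block the difference from both strains was -1.53 (adjusted p = 1.66e-09).

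The other probes with the most similar profile over the 72 samples were der-miR-305 (Pearson r = 0.67), aae-miR-9b (0.65) and dsi-miR-305 (0.64). The longest run that bmo-miR-2779 shares with any non-member target is the 9 bases of dme-miR-997 given above, and der-miR-2b, its best full alignment, matches at 12 of 19 aligned positions.

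bmo-miR-2774c gave signal in some male groups and in 0 of 24 female samples. In Oregon-R males its net intensity was 512, 952, 318 and 266 at PF, against 152, 78.4, 84.9 and 9.0 earlier, with no overlap between stages. In Canton-S males it was 36, 93.9, 5.4 and 71.9 at PF (2 of 4 detected), against 9.5, 1.3, 1.9 and 1.3 earlier (0 of 4). D. simulans males gave 24.2, 163, 0.7 and 7.0 at PF and D. yakuba males 50.5, 9.8, 8.2 and -0.7, 2 of 4 detected in each, with 0 of 4 earlier. Samarkand and Zimbabwe-109 males stayed under the limit in all 16 samples.

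Over D. melanogaster males as a whole the level of bmo-miR-2774c was higher at PF by 0.59 ± 0.08 on average, in 12 arrays and lower in 4. This mean covers unlike strains: the difference, PF minus earlier, was 2.01 ± 0.15 in Oregon-R males, 0.42 in Canton-S, -0.06 in Samarkand and 0.00 in Zimbabwe-109. Mean log2 levels in these males at PF were 9.30, 6.67, 5.89 and 5.91 in the same order. At the earlier stage, which did not admit the member, they were 7.29, 6.26, 5.95 and 5.90 (limma F-test, adjusted p = 5.45e-08), with 2 of 4 samples detected in Oregon-R and 0 of 4 in each of the others. These earlier Oregon-R samples share their arrays with the PF samples that admitted the member, so this test is not independent of its admission. In D. simulans males the stage difference was 0.43 ± 0.15 (adjusted p = 0.0152), and it lost the call without replicate 1 or replicate 2 (adjusted p = 0.166 to 0.190), falling to 0.26 without replicate 2. In D. yakuba males it was 0.36 ± 0.15 (adjusted p = 0.0473), and it lost the call without replicate 1 or replicate 3 (adjusted p = 0.0839 to 0.628, with 0.13 without replicate 1) and with the array as a fixed replicate block (adjusted p = 0.0549).

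Males exceeded females in bmo-miR-2774c over Oregon-R and Zimbabwe-109, with means of 7.60 and 5.96 at PF, at least 3.02-fold, and 6.60 and 5.91 earlier, at least 1.32-fold (limma, adjusted p = 9.28e-05). These averages rest on Oregon-R, since Zimbabwe-109 males were under the limit in all 8 samples and the females in all 16. Such a lower bound sets the brighter mean against the lowest detected level on each array of the dimmer arm, or the probe's own level where that was higher. The earlier Oregon-R males lie on the arrays that admitted the member, so the earlier sex test is not independent of its admission. With the authors' deposited table the sex call was lost at both stages. The comparison of the stage difference between males and females called 25.4% of all probes and 2 of the 10 members, bmo-miR-2774c and dps-miR-2571*. For bmo-miR-2774c it set 2.01 in Oregon-R males and 0.00 in Zimbabwe-109 males against female samples all under the limit, so its size is not a measured difference between the sexes. Plain background subtraction and the authors' deposited table, centred or not, ended this call. In D. simulans at PF males averaged 6.54 and females 5.91 (adjusted p = 0.0204). Leaving out male replicate 1, male replicate 2, female replicate 1 or female replicate 3 ended that call (adjusted p = 0.0547 to 0.315), and without male replicate 2 the difference was 0.33. The closest profile among other probes was that of ame-miR-317 (r = 0.52).

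dps-miR-2571* showed the converse pattern, with signal at the earlier stage and almost none at PF. It was detected in 26 of 36 earlier samples and in 1 of 36 PF samples. In Zimbabwe-109 females its net intensity was -2.3, -3.4, 3.6 and 87.9 at PF, against 893, 1788.5, 22519 and 32526.5 earlier. In Oregon-R females it was between -10.1 and -0.2 at PF, against 6946, 6825.5, 87.4 and 51.4 earlier, and in Zimbabwe-109 males between -2.7 and 7.4 at PF, against 3281, 12053, 424.8 and 475.1 earlier. The stages did not overlap in these 3 pairs of groups, while replicates at the earlier stage spread widely. The brighter Zimbabwe-109 female replicates, 3 and 4, lay on another slide than replicates 1 and 2. The Oregon-R females all lay on 1 slide. Whether the slide takes part in the spread was not tested. Oregon-R males reached only 21.9 earlier, with 1 of 4 detected.

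dps-miR-2571* entered through earlier groups alone, so its stage differences reuse the values that admitted it. In D. melanogaster females it was lower at PF in 8 of 8 arrays, by at least 31-fold, with 1 of 8 PF and 8 of 8 earlier samples detected. In D. melanogaster males it was lower in 16 of 16 arrays, by at least 3.37-fold, with 0 of 16 PF and 11 of 16 earlier samples detected. PF values at the limit allow only such lower bounds. By strain the bounds were at least 76.4-fold in Zimbabwe-109 females, 34.3-fold in Zimbabwe-109 males, 12.6-fold in Oregon-R females, 3.80-fold in Canton-S males and 1.47-fold in Samarkand males, and none could be given in Oregon-R males. The stage differences in D. simulans males, D. simulans females and D. yakuba males were not called. The comparison of the stage difference between the sexes of D. melanogaster called dps-miR-2571*. With 0 of 8 male and 1 of 8 female PF samples detected, however, the sizes of both falls, and so of their difference, were not measured.

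bmo-miR-3366 was detected in 18 of 36 earlier samples and in 0 of 36 PF samples. In Zimbabwe-109 males it gave 3.9, 8.2, 0.1 and 3.9 at PF, against 2722, 10838, 954 and 1841 earlier. In Zimbabwe-109 females it gave between -13.2 and 4.8 at PF, against 23.6, 77.6, 2780.2 and 3619 earlier. In the other strains the highest earlier value was 191, in Canton-S males of replicate 1. It entered through earlier groups alone, so its stage differences reuse the values that admitted it. It was lower at PF in D. melanogaster males, by at least 2.92-fold (15 of 16 arrays lower), and in D. melanogaster females, by at least 3.90-fold (8 of 8 lower). Zimbabwe-109 female arrays 3 and 4 lay on another slide than arrays 1 and 2. Without arrays 3 and 4 the fitted female difference was -1.06 in place of -2.24, still called. The bound was at least 60.4-fold within Zimbabwe-109 males and 8.14-fold within Zimbabwe-109 females, and Oregon-R males were under the limit in all 8 samples.

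The earlier-stage level of bmo-miR-3366 in males was highest in Zimbabwe-109, at a mean log2 level of 12.54. Oregon-R averaged 6.03, and Canton-S and Samarkand 6.99 each. The member was admitted through these Zimbabwe-109 and Canton-S males, among other groups. For dps-miR-2571*, also admitted through earlier Zimbabwe-109 and Canton-S males, the corresponding means were 11.73 in Zimbabwe-109, 8.29 in Canton-S, 7.11 in Samarkand and 6.16 in Oregon-R.

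bmo-miR-3234, bmo-miR-3287 and bmo-miR-2724 were dim and were detected in 7, 7 and 6 samples, all at the earlier stage. The highest net intensities of bmo-miR-3234 were 247 in Zimbabwe-109 females of replicate 4 and 161 in Zimbabwe-109 males of replicate 2. bmo-miR-3287 reached 238 in that same male sample and bmo-miR-2724 no more than 47.3. In D. melanogaster females the level at PF was lower in 8 of 8 arrays for each, by at least 1.65-fold for bmo-miR-3234, 1.24-fold for bmo-miR-2724 and 1.39-fold for bmo-miR-3287 (limma, adjusted p = 1.46e-05 for bmo-miR-3287, which did not enter through females). Without Zimbabwe-109 female replicate 4 the fitted difference of bmo-miR-3234 was -0.58 in place of -0.96 and that of bmo-miR-3287 -0.42 in place of -0.65, the second still called.

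In D. melanogaster males the same 3 members were lower at PF with no fold to be given, since their means lay near the detection limit. The fitted differences were -0.33 for bmo-miR-3234 (limma, adjusted p = 0.00801), -0.37 for bmo-miR-3287 and -0.23 for bmo-miR-2724 (adjusted p = 1.26e-05). With the array as a fixed replicate block bmo-miR-3234 lost its call (adjusted p = 0.0511). Earlier-stage males differed among strains for bmo-miR-3234 (adjusted p = 0.00585) and bmo-miR-2724 (adjusted p = 0.0262), with Zimbabwe-109 highest and the other 3 strains under the limit in all samples. bmo-miR-3287 averaged 7.17 in Zimbabwe-109, through which it entered, and 5.97 to 6.17 in the others. Leaving out Zimbabwe-109 male replicate 2 ended the strain call of bmo-miR-3234 (adjusted p = 0.145), and leaving out Oregon-R male replicate 2 or 3 or Zimbabwe-109 male replicate 1 ended that of bmo-miR-2724 (adjusted p = 0.0781 to 0.108). The strain call of bmo-miR-2724 was also lost with median centring, the authors' deposited table, centred or not, and the mean of the spots. The call of bmo-miR-2724 in D. simulans females, -0.32, had both stages under the limit in all 8 samples and was lost without replicate 3 (adjusted p = 0.0897).

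These earlier-stage members correlated with probes whose targets hold G runs. Over the 72 samples, dps-miR-2571* was closest to dps-miR-2550* (r = 0.95), bmo-miR-3366 to dps-miR-1000* (0.92) and bmo-miR-3234 to bmo-miR-3378 (0.92), all with 4 G in a row or 2 runs of 3 G. The closest probes of the other 2 hold no such run: bmo-miR-3287 was closest to dya-wu-mir-2226-5p (0.92), with the G-run probe dps-miR-311* at 0.86, and bmo-miR-2724 to dme-mir-316-3p (0.63). The median r with the 20 tested probes that hold such runs was 0.72 for dps-miR-2571* and for bmo-miR-3366, 0.66 for bmo-miR-3287, 0.63 for bmo-miR-3234 and 0.41 for bmo-miR-2724. It was -0.50 for bmo-miR-2779 and -0.21 for bmo-miR-2774c. With the 242 other probes the median r of the first 5 lay between -0.26 and -0.10, but their highest r lay between 0.63 and 0.92. Their lowest r with a G-run probe lay between -0.23 and 0. The 5 members were grouped by their signal at the earlier stage, and most G-run probes were also lower at PF in D. melanogaster. The correlations therefore include that shared stage difference. They also share arrays, dyes and scan background and are descriptions.

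At PF against the earlier stage, 17 of the 20 G-run probes were called lower in D. melanogaster males and 17 in females, 11 in D. simulans males, 7 in D. simulans females and 11 in D. yakuba males, and 0 were called higher in any of these. The targets of bmo-miR-3366, bmo-miR-3234 and bmo-miR-3287 each hold GGG once, and those of dps-miR-2571* and bmo-miR-2724 a single GG. GGG also occurs in the target of bmo-miR-2856*, which is 45% G, and that member was not called for stage. The target of bmo-miR-2789 is 42.9% G with 3 GG. It was called lower in D. melanogaster females, but the difference was -0.07 without Oregon-R female replicate 3. bmo-miR-2779 and bmo-miR-2774c, with 2 GG each, were on average higher at PF in D. melanogaster males. Whether the G content of the probes takes part in the stage difference was not tested.

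These earlier-stage members were also compared between the sexes and the species. At the earlier stage 36.8% of all probes and 5 members were called between males and females of D. melanogaster. Over Oregon-R and Zimbabwe-109, bmo-miR-3366 averaged 9.29 in males and 7.81 in females and was called. This comparison and that of dps-miR-2571* below hold groups that admitted the member. The strains ran opposite ways: in Zimbabwe-109 it averaged 12.54 in males and 9.03 in females, and in Oregon-R 6.03 in males (0 of 4 detected) and 6.58 in females (2 of 4). dps-miR-2571* averaged 8.95 in males and 10.73 in females, with 11.73 and 12.35 in Zimbabwe-109 and 6.16 and 9.10 in Oregon-R. The dps-miR-2571* call was lost without any 1 of 5 arrays. These were Oregon-R female replicates 1 and 2, Zimbabwe-109 male replicates 3 and 4, and Zimbabwe-109 female replicate 4. Without Zimbabwe-109 female arrays 3 and 4, a setting added after the data were seen, the dps-miR-2571* difference was -0.81 and not called. That of bmo-miR-3366 was 2.51, still called.

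Between D. yakuba and D. melanogaster males at the earlier stage 29.4% of all probes and 4 members were called, the 4 all lower in D. yakuba (10.7% of all probes). The mean log2 levels, in D. yakuba against D. melanogaster, were 6.43 against 8.14 for bmo-miR-3366 and 6.50 against 8.32 for dps-miR-2571*. Both means of D. melanogaster include groups that admitted the member. The levels were 5.90 against 6.35 for bmo-miR-2774c (limma, adjusted p = 0.0232) and 7.22 against 7.72 for bmo-miR-2779 (adjusted p = 0.0442). The D. yakuba males shared their slide with 2 Samarkand samples of each stage, and on it the means were 6.43 in D. yakuba and 7.17 in Samarkand for bmo-miR-3366, 6.50 and 7.52 for dps-miR-2571*, 5.90 and 5.93 for bmo-miR-2774c, and 7.22 and 7.20 for bmo-miR-2779. With the slide as a block, which sets D. yakuba against Samarkand and Zimbabwe-109, bmo-miR-3366 was -3.44 and dps-miR-2571* -3.36, both still called, while bmo-miR-2774c was -0.04 and bmo-miR-2779 turned to 0.52, neither called. The dps-miR-2571* call also ended without Canton-S male replicate 1, Zimbabwe-109 male replicate 2 or any 1 of the D. yakuba replicates. That of bmo-miR-2774c ended without D. yakuba replicate 2 or 3 (adjusted p = 0.0564 to 0.0606). That of bmo-miR-2779 ended without any 1 of 9 of the 20 arrays, all 4 D. yakuba replicates, replicate 5 of Oregon-R, replicates 2 and 4 of Canton-S and replicate 4 of Samarkand and of Zimbabwe-109 (adjusted p = 0.0594 to 0.158).

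At PF, D. yakuba against D. melanogaster males called 41.9% of all probes and 1 member, bmo-miR-2774c, at 6.25 in D. yakuba against 6.94 in D. melanogaster, whose mean includes the Oregon-R males that admitted the member. With the slide as a block, which sets D. yakuba against Samarkand and Zimbabwe-109 alone, the difference was 0.34 and was not called. At PF those strains averaged 5.89 and 5.91, against 9.30 in Oregon-R and 6.67 in Canton-S, which that setting leaves out. D. simulans against D. melanogaster males called 8.09% of all probes and 1 member at the earlier stage, and 10.7% and 1 member at PF, bmo-miR-2779 as given above. The earlier-stage member was bmo-miR-3366, at 6.50 in D. simulans against 8.14 in D. melanogaster, whose mean includes groups that admitted the member. This call ended without D. simulans replicate 1 or 3, and with the slide as a block the difference was -0.01. Zimbabwe-109, the strain with the bright signal, shared no slide with D. simulans males.

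dps-miR-2523, the member that shares 10 bases with 2S rRNA, was detected in 11 of 48 male samples and 19 of 24 female samples. In Oregon-R females its net intensity was 1479, 450.4, 89.4 and 52.1 at PF, against 455.7, 708.1, -3.0 and 43.7 earlier. In Zimbabwe-109 females it was 129.9, 89.2, 1081 and 163 at PF, against 9.2, 93.2, 76.2 and 247 earlier. No male sample exceeded 53.6. Female values spread over more than an order of magnitude and the stages overlapped.

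dps-miR-2523 entered through female groups alone, so its comparisons of the sexes reuse the values that admitted it. Males of D. melanogaster were lower than females at PF, with means of 6.05 and 7.58, by -1.53 ± 0.32. That comparison called 56.2% of all probes and 3 members. Earlier the means were 6.02 in males and 6.98 in females, a difference of -0.96 ± 0.32, which lost its call without Oregon-R female replicate 2. The stage difference of dps-miR-2523 in D. melanogaster females was 0.60 ± 0.24 (limma, adjusted p = 0.0236), higher in 4 of 8 arrays. It lost the call in 11 of 20 alternatives. Among these were plain background subtraction, an offset of 10, quantile normalisation, the authors' table and no replicate block. The array as a fixed replicate block also ended it (adjusted p = 0.0702). So did leaving out Oregon-R female replicate 1, Oregon-R female replicate 3 or Zimbabwe-109 female replicate 3 (adjusted p = 0.0682 to 0.477, with 0.17 without the last).

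Dye moved with dps-miR-2523, which was detected in 22 of 36 Cy5 samples and 8 of 36 Cy3 samples. Its level was higher in Cy5 by 0.82 ± 0.11 (limma, adjusted p = 2.06e-07), in a comparison, added after the data were seen, that called 30.9% of all probes and 6 members, 5 of them higher in Cy5 (8.09% of all probes). Its profile correlated with the 8 probes for 2S rRNA between -0.50, for the unmodified probe, and 0.76, for the probe with 3 introduced differences. The unmodified 2S probe had a median net intensity of 46070 over the 72 samples and the 3-difference probe 229. That 3-difference probe was itself brighter in females, with medians of 232 and 68.4 in males in Cy5 and Cy3 and of 1546 and 851 in females in Cy5 and Cy3. Of the 8 2S probes, 4 hold the shared run, and the probe with 3 differences does not. Whether 2S rRNA binds the dps-miR-2523 probe was not tested.

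bmo-miR-2856* was also detected mostly in 1 dye, in 24 of 36 Cy5 samples and 3 of 36 Cy3 samples. Its level was higher in Cy5 by 0.72 ± 0.10 (limma, adjusted p = 2.06e-07). Its net intensity ran from -6.76 to 388 with a median of 13.3, and it was detected at both stages and in both sexes (12 of 36 PF and 15 of 36 earlier samples, 15 of 48 male and 12 of 24 female samples). It was not called for stage, strain, species or sex in any of the comparisons. bmo-miR-3233, which could not be tested, was detected in 12 samples, all of them in Cy3, with its highest net intensities of 431 and 344 in Zimbabwe-109 females at PF (replicate 4) and earlier (replicate 3). bmo-miR-3366, bmo-miR-3234 and bmo-miR-3287 were higher in Cy5 by 0.39, 0.24 and 0.17, and bmo-miR-2779 was lower by -0.29. The dye call of bmo-miR-3366 ended without any 1 of 10 arrays (adjusted p = 0.0504 to 0.0906): Oregon-R female replicates 2 and 3, Canton-S male replicate 3, Samarkand male replicate 2, Zimbabwe-109 male replicates 2, 3 and 4, Zimbabwe-109 female replicates 1 and 4, and D. simulans male replicate 4. That of bmo-miR-3287 ended without any 1 of 5 (adjusted p = 0.0505 to 0.0751): Oregon-R female replicate 2, Zimbabwe-109 male replicate 3, Zimbabwe-109 female replicates 1 and 4, and D. simulans male replicate 4. Without Zimbabwe-109 female replicate 4 the dye difference of bmo-miR-3366 was 0.26 and that of bmo-miR-3234 0.16.

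bmo-miR-2789 was detected in 25 samples with low values, apart from 1. In Oregon-R females it gave 43.3, 127, 6.8 and 69.4 at PF, against 118, 75.1, 2193 and 0.6 earlier, so a single earlier sample stood more than an order of magnitude above the rest. In Samarkand males it gave 30.3, 80.9, 41.9 and 122 at PF (4 of 4 detected), against 46.8, 21.1, 71.8 and 13.7 earlier (1 of 4), yet the normalised difference there, PF minus earlier, was -0.07 ± 0.31. In D. yakuba males it gave 44.1, 47.6, 30.8 and 75.4 at PF (4 of 4), against 102.5, 35.1, 56.7 and 75.0 earlier (3 of 4), a difference of -0.42 ± 0.31 that was not called. The difference in D. melanogaster females, PF minus earlier, was -0.62 ± 0.22 (limma, adjusted p = 0.00992). Without Oregon-R female replicate 3 it was -0.07 (adjusted p = 0.593).

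A family of near-identical members, bmo-miR-2776, bmo-miR-2778a and bmo-miR-2778b, was bright in a few female samples and in 0 male samples. The targets of the first 2 are identical over 21 aligned bases and differ from the third at 1, so their probes are not independent of each other. In Zimbabwe-109 females of replicate 3 at the earlier stage they gave 2138, 2258 and 2699, and in Zimbabwe-109 females of replicate 4 at PF 1314, 1437 and 1528. In Oregon-R females of replicate 1 at the earlier stage they gave 346, 429 and 909.8. These 3 samples were all labelled with Cy3, and the Cy5 samples on the same arrays gave 29.1, 22.7 and 4.4, then 30, 36.3 and 229, and then 49.0, 59.2 and 90.7. Dye was not tested for these probes. The other replicates of those 3 groups gave at most 30 for bmo-miR-2776, and outside the samples named none of the 3 probes exceeded 229, the value of bmo-miR-2778b in Zimbabwe-109 females of replicate 4 at the earlier stage. Their relatives bmo-miR-2778c* and bmo-miR-2778d* differ from bmo-miR-2778a at 1 and 3 aligned positions and were detected in 0 samples, with highest net intensities of 29.7 and 39.9.

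Between males and females of D. simulans, the earlier stage had 16.2% of all probes called and PF 15.4%. The members called were bmo-miR-2724 at the earlier stage (5.93 in males and 6.43 in females, limma, adjusted p = 0.00166), where both arms stayed under the limit in all 8 samples, and bmo-miR-2774c and bmo-miR-2779 at PF, as described. dps-miR-2523 gave 249, 26.4, 138 and 12.8 in D. simulans females at PF and 10.2, 181, 19.8 and 94.8 earlier, against at most 23.1 in D. simulans males, and this sex difference was not called.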

How the data were processed

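RNA of 72 pools of whole animals was hybridised to 36 2-colour microRNA arrays. The scanner files deposited by the authors give a raw spot intensity per channel. The series' value table, deposited on a linear intensity scale with its processing not given in the sources used here, served as an alternative. From the intensities the background was corrected with normexp on the empty spots (offset 50), channels were normalised with loess within arrays and Aquantile between arrays, and the median of 3 spots was taken on the log2 scale, computed here from the deposited intensities. limma 3.58.1 in R 4.3.3 fitted group and dye with the array as a random block (duplicateCorrelation, consensus correlation 0.428) across 272 probes detected in at least 3 samples of a group, with Benjamini-Hochberg adjustment. The pairing comes from the arrays: the 2 samples of an array correlated in their deviations at a median of 0.231 (from -0.219 to 0.712). Named members are the 10 tested and the untested ones detected in the most samples. Their relatives, the probes at the edges of the rule and the G-run probes were named after their values were seen. The members and lists were chosen with earlier results of these data known. Alternatives covered the limit, background, normalisation, filter, block, slide, dye and left-out arrays. For arrays the number of replicates limits the precision. The fitting steps were tested on simulated data. Member target sequences are not printed, as no chromosome is given for them in the sources used here.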

Additional observations from a re-analysis of the deposited data

Results flagged for a closer look

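A sample was singled out when its gap to the nearest of the other 3 samples of its group, as a share of the group's whole range, exceeded Dixon's critical value. Chance alone would single out about 1 in 20 groups. For the normalised log2 levels of the tested members 93 groups were examined and 8 had such a sample. bmo-miR-2856* was high in Zimbabwe-109 males at PF of replicate 1 (7.27, the others 5.97 to 6.15) and in earlier D. simulans females of replicate 2 (6.68, the others 6.17 to 6.22), both in Cy5. bmo-miR-2774c was low in Oregon-R males at PF of replicate 5 (8.39, the others 9.58 to 9.64). bmo-miR-2779 was high in Samarkand males at PF of replicate 4 (10.01, the others 9.08 to 9.13) and low in Zimbabwe-109 males at PF of replicate 3 (6.99, the others 8.25 to 8.42). bmo-miR-2789 was high in earlier Oregon-R females of replicate 3 (10.13, the others 6.06 to 6.55), bmo-miR-3234 in earlier Zimbabwe-109 females of replicate 4 (8.28, the others 6.22 to 6.57), and dps-miR-2571* in earlier Canton-S males of replicate 1 (10.42, the others 7.36 to 7.86). Of 18 groups examined for the number of members detected, 1 had a sample apart: Oregon-R males at PF of replicate 2, with 5 members against 2 in each of the others.

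The stage difference of a pair of members differed between the sexes of D. melanogaster when the difference itself was tested, by 0.96 for bmo-miR-2774c and 2.52 for dps-miR-2571* on the log2 scale (limma, males minus females), and slide differed with sex in both. For the first, 0 of 16 female samples were detected, and for the second 1 of 16 PF samples, so neither size is a measured difference.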

How the results depend on the processing

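Of 594 values of the 56 called member differences and strain tests under other settings, 507 kept their direction and call, 84 lost the call and 3 turned sign: bmo-miR-2779 in D. yakuba against D. melanogaster males earlier (0.95 with the authors' deposited table, 0.52 with the slide as a block) and bmo-miR-2774c in the same comparison at PF (0.34 with the slide as a block). Of 884 values that left out 1 array, 821 kept the call and 63 lost it. The slide block set D. yakuba against Samarkand and Zimbabwe-109 alone, so its values compare another set of strains than the main fit. The cause was not tested for any of these changes.

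The number of members detected somewhere, 57, was 206, 27 and 146 with limits of 2 SD, 5 SD and the 99th percentile. With no filter on dim probes all 543 members were tested, and the share of all 1339 probes called is given in brackets. For stage 22 and 53 were called in D. melanogaster males and females (15.2% and 23.4%), 1 in D. simulans females (5.9%) and 1 in D. yakuba males (8.07%). For D. yakuba against D. melanogaster males it was 18 earlier and 31 at PF (7.39% and 11.4%). For sex, earlier and at PF, it was 75 and 67 in D. melanogaster (16.8% and 20.1%) and 10 and 12 in D. simulans (4.56% and 4.71%). Stage by sex called 9 (5.15%), dye 155 (26.2%) and strain 26 earlier and 10 at PF (10.3% and 5.45%). These 14 counts are 0.184% to 28.5% of the 543 members, against 4.56% to 26.2% of all 1339 probes, and the members' share was below that of all probes in 13 of the 14. Requiring detection in every sample of a group left 244 probes, and the share of these called is given in brackets. It gave 4 and 5 members for stage in D. melanogaster males and females (70.1% and 74.2%) and 1 in D. simulans females (45.1%). It gave 0 for sex in D. simulans earlier (16.4%), 3 for dye (32.4%) and 4 for strain earlier (39.8%).

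In what follows the share of all 272 probes called is given in brackets. Plain background subtraction gave 5 for stage in D. simulans males (44.1%) and 3 and 2 for D. simulans against D. melanogaster males earlier and at PF (9.56% and 11.8%). It gave 0 for D. yakuba against D. melanogaster males at PF (26.5%) and 1 for sex in D. simulans at PF (15.4%). An offset of 10 gave 4 and 2 for the first 2 of these (52.2% and 10.3%). For stage in D. yakuba males, median centring and quantile normalisation gave 1 (37.9% and 40.4%). For D. yakuba against D. melanogaster males earlier both gave 2 (23.9% and 30.1%). The authors' table gave 4 for stage in D. yakuba males with and without centring (34.6% and 33.5%). For D. simulans against D. melanogaster males it gave 0 earlier with and without (10.3% and 5.88%) and 2 and 0 at PF (9.19% and 4.78%). It gave 2 and 3 for sex in D. melanogaster earlier (43% and 62.9%). For sex in D. simulans it gave 0 earlier with and without (13.2% and 7.35%) and 1 and 0 at PF (11% and 6.25%). The mean of the spots gave 2 for D. simulans against D. melanogaster males at PF (12.1%). The slide as a block gave 2 for both stages of that comparison (11.4% earlier and 15.8% at PF) and 2 for D. yakuba earlier (18%).

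With no replicate block 1 member was called for stage in D. simulans males (33.5% of all probes), 1 in D. simulans females (24.3%) and 1 in D. yakuba males (36.4%). For D. simulans against D. melanogaster males earlier it was 2 (9.19%). With the array as a fixed replicate block 1 was called in D. yakuba males (45.2%). With that fixed block bmo-miR-3234 in D. melanogaster males, bmo-miR-2774c in D. yakuba males and dps-miR-2523 in D. melanogaster females lost their calls, and no other stage call did. For the counts given here other than those with no filter and those leaving out 1 array, 4.78% to 74.2% of the probes tested were called. The counts leaving out 1 array are given without that share and are descriptions. Leaving out 1 array at a time moved the number called between 7 and 7 and between 6 and 8 for stage in D. melanogaster males and females, 1 and 2 and 0 and 2 in D. simulans males and females, 1 and 2 in D. yakuba, 0 and 2 and 1 and 2 for D. simulans against D. melanogaster earlier and at PF, 1 and 4 and 1 and 1 for D. yakuba, 3 and 5 and 3 and 3 for sex in D. melanogaster, 1 and 1 at both stages in D. simulans, 2 and 4 for stage by sex, 4 and 6 for dye, and 6 and 7 and 2 and 2 for strain.

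With 4 samples in a group and most members near the empty spots, small differences in these probes could not be measured, and a member that was not detected gives no level.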
